A study of Sus scrofa with 6 samples.

Results

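The genes of the proteasome and of its activators, inhibitor and assembly factors were examined in the longissimus dorsi, the long muscle of the back, of young piglets. Probe sets were taken as members where the deposited annotation gave a symbol starting with PSMA, PSMB, PSMC, PSMD, PSME or PSMF, or a title holding the word proteasome. The rule used names only, no signal, and it found 40 of the 23999 non-control probe sets of an Affymetrix porcine array. Of these, 24 were found by symbol and 16 by title alone. Looked up by Entrez ID in the RefSeq annotation, they stood for 35 genes.

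Total RNA of 6 male piglets, each 25 days old and with no treatment stated, was hybridised to 1 array per animal. One group was 3 Yorkshire piglets, a lean breed of commercial pig production (replicates 1 to 3), and the other 3 Shaziling piglets, an indigenous Chinese breed (replicates 4 to 6). Within each breed the piglets were full siblings, and each breed was kept on a farm of its own, so breed, litter and farm cannot be told apart here, and p-values measure the spread between siblings. The question put to these arrays was which genes differed between the breeds in muscle at this early age.

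The 26S proteasome is the large protease that degrades proteins tagged with ubiquitin. Its barrel, the 20S core, is built of alpha rings that gate the entrance and beta rings that hold the cutting sites, and the 19S cap recognises, unfolds and feeds the tagged proteins. Interferon-gamma replaces the catalytic beta subunits PSMB5, PSMB6 and PSMB7 by PSMB8, PSMB9 and PSMB10, and the resulting immunoproteasome makes peptides suited to presentation on class I molecules. In skeletal muscle the proteasome degrades much of the contractile protein that is lost in wasting.

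The signals were MAS5 values on the log2 scale, with a detection call of Present, Marginal or Absent for each. The number of arrays, 3 a breed, limits the precision of every value below. Arrays had been scaled alike, with a 2% trimmed mean of 500.1 to 500.2 on the linear scale, and 56.4% to 60.6% of their probe sets were Present. All 10 listed muscle fibre genes passed the filter for testing, with summed linear signals of 220518 to 276383 in Yorkshire and 259771 to 291105 in Shaziling. A probe set's signal depends on its own probes as well as on its transcript, so signals were compared between piglets and not between genes.

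Proteasome transcripts were readily detected. All 6 arrays called 36 of the 40 probe sets Present. At least 3 arrays did so for 38, which covered all 35 genes and were tested. The members were 4 genes of the alpha ring, 5 constitutive genes of the beta ring, 3 immunoproteasome genes, 3 ATPases of the cap, 10 non-ATPases of the cap, 5 activators or inhibitors and 5 assembly factors. The symbols PSMD1, PSMD3, PSMD11, PSMD14 and PSMF1 each had more than 1 probe set.

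No proteasome gene passed the test between the breeds. With limma and Benjamini-Hochberg adjustment over 14413 probe sets, 0 of the 38 tested members had an adjusted p under 0.05, where 0.215% of all tested probe sets did. At an unadjusted p under 0.05 the count was again 0 of 38, against 10.4% of all tested probe sets. In other fits PSME1, PSMB10, PSMB8, PSMD9, PSMG4 or a dim probe set of PSMF1 had an unadjusted p under 0.05, the lowest being 0.0041 for PSMB8 without Shaziling replicate 6. Adjusted p-values of members ran from 0.493 to 0.990 and the lowest unadjusted p was 0.054. Differences, given throughout as Shaziling minus Yorkshire on the log2 scale, ran from −0.54 for PSMD9 to 0.82 for PSMB8. They were positive for 21 members and negative for 17, with a median of 0.02, beside 46.2% positive and a median of −0.04 for all tested probe sets. The breeds did not overlap for 3 of 38 members, SEM1 on the higher side and PSMD9 and a probe set of PSMD1 on the lower, where 16.3% of all tested probe sets did not overlap.

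**Figure D1:**
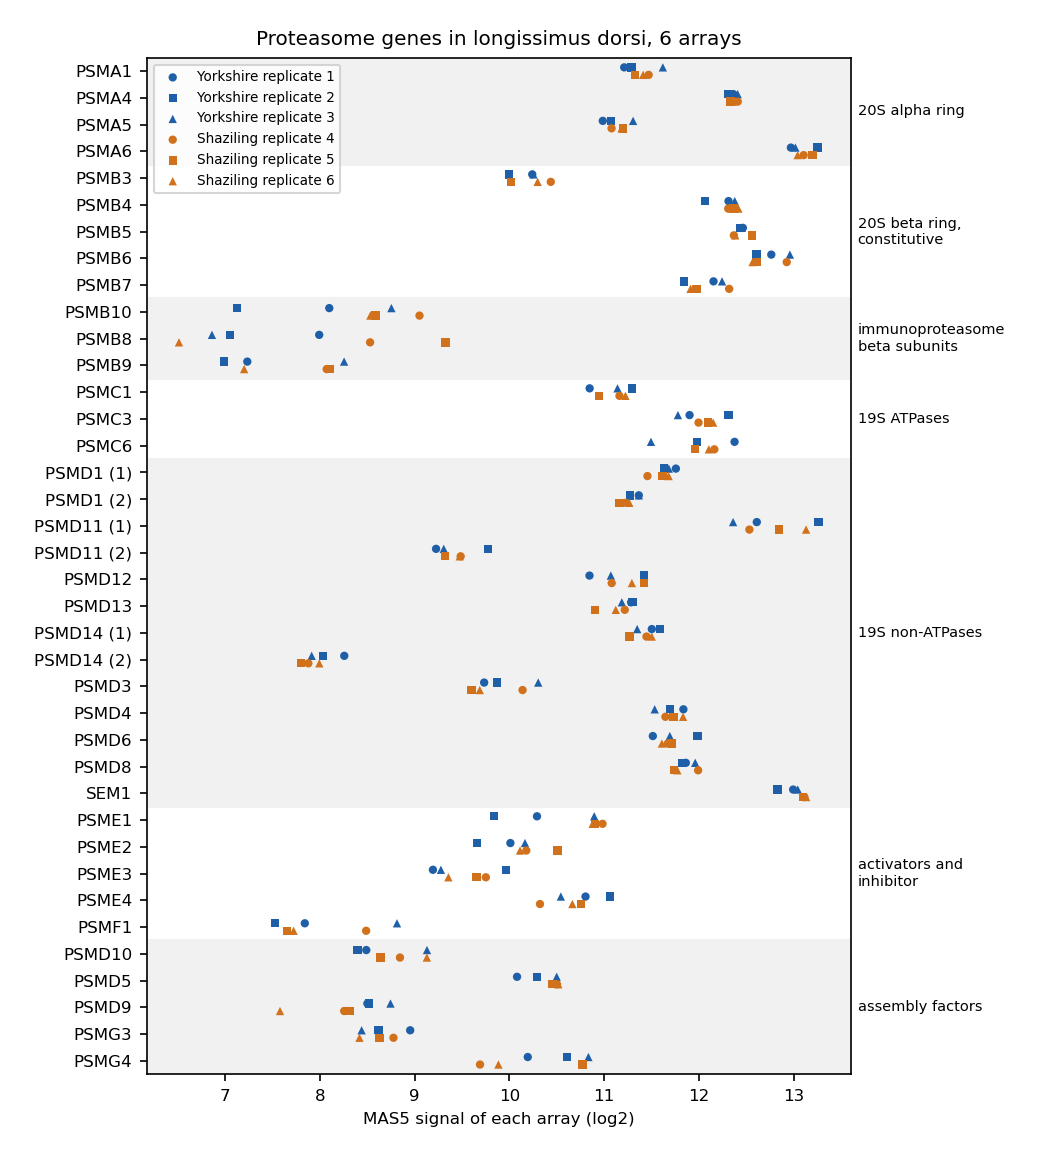
Log2 MAS5 signal (horizontal axis) of the 38 tested probe sets, grouped by role, with 1 point per array. Blue points are the 3 Yorkshire and orange points the 3 Shaziling piglets, marker shape is the replicate, and (1) and (2) are probe sets of 1 gene, the brighter first. Points of the core and cap lie close together, and those of PSMB8, PSMB9 and PSMB10 are spread widely within each breed.

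The alpha ring was nearly the same in both breeds, and none of its genes passed the test. PSMA6 read 12.97, 13.25 and 13.02 in Yorkshire and 13.11, 13.20 and 13.04 in Shaziling. Its breeds overlapped and differed by 0.04 ± 0.14 (SE of the limma fit, 3 arrays a breed; limma adjusted p = 0.953). PSMA4 read 12.36, 12.31 and 12.41 in Yorkshire and 12.41, 12.33 and 12.35 in Shaziling. All 6 arrays lay within 0.10 of each other, the narrowest range of the members, and the difference was 0.01 (95% interval −0.31 to 0.33). PSMA1 averaged 11.37 ± 0.22 in the Yorkshire group and 11.40 ± 0.07 in the Shaziling group (SD, n = 3), and PSMA5 averaged 11.12 ± 0.17 and 11.15 ± 0.07. Each differed by 0.03. The group's 4 differences were positive, from 0.01 to 0.04.

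The constitutive beta ring was also close between breeds. PSMB5, which carries the chymotrypsin-like site of the standard core, read 12.46, 12.44 and 12.45 in Yorkshire and 12.37, 12.56 and 12.38 in Shaziling. The Shaziling piglets lay on both sides of the Yorkshire values, and the difference was −0.01 (95% interval −0.34 to 0.31). PSMB6, the caspase-like subunit, read 12.76, 12.61 and 12.96 in Yorkshire and 12.93, 12.61 and 12.57 in Shaziling, a difference of −0.08 ± 0.17 (SE). PSMB7, the trypsin-like subunit, read 12.15, 11.85 and 12.24 in Yorkshire and 12.32, 11.97 and 11.91 in Shaziling, a difference of −0.01 ± 0.19. The piglets of both breeds overlapped for these catalytic subunits. The structural subunits PSMB3 and PSMB4 differed by 0.09 ± 0.20 and 0.11 ± 0.16, and the median of the 5 genes was −0.01. The deposited annotation gives no genome alignment for the PSMB3 probe set.

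The ATPases form the ring of the cap that unfolds substrates and opens the core. PSMC1 averaged 11.09 ± 0.23 in Yorkshire piglets and 11.11 ± 0.15 in Shaziling piglets (SD, n = 3), a difference of 0.02. PSMC3 averaged 12.00 ± 0.28 and 12.08 ± 0.08, a difference of 0.08. PSMC6 was the most variable of the ATPases, with 12.38, 11.98 and 11.49 in Yorkshire and 12.16, 11.96 and 12.10 in Shaziling. Its Yorkshire piglets spanned the Shaziling ones, and the breeds differed by 0.13 ± 0.23 (SE).

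Among the non-ATPases of the cap, 4 of the 13 tested probe sets had a positive and 9 a negative difference, with a median of −0.06 and a range of −0.18 to 0.16. SEM1, the small DSS1 protein of the lid, read 13.00, 12.83 and 13.04 in Yorkshire and 13.11, 13.10 and 13.13 in Shaziling. Every Shaziling piglet lay above every Yorkshire piglet, as for 7.42% of all tested probe sets, but the difference of 0.16 ± 0.14 did not pass the test (adjusted p = 0.735). The RefSeq table classes the SEM1 locus as a long non-coding RNA, so the product behind this signal is uncertain. PSMD1, the large scaffold protein of the base, had 1 probe set whose breeds did not overlap, with 11.37, 11.27 and 11.37 in Yorkshire and 11.23, 11.16 and 11.26 in Shaziling. Every Shaziling piglet was lower there, as for 8.89% of all tested probe sets, by a difference of −0.12 ± 0.16 (adjusted p = 0.846). The second PSMD1 probe set read 11.76, 11.63 and 11.68 in Yorkshire and 11.46, 11.62 and 11.68 in Shaziling and overlapped, with a difference of −0.10 ± 0.16. It aligned to the genome at 76.9% identity in the file, against 95.4% for the first.

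PSMD14, the deubiquitinase that removes ubiquitin chains as substrates enter, had differences of −0.08 ± 0.17 and −0.18 ± 0.23 at its 2 probe sets. The dimmer of them read 8.26, 8.03 and 7.91 in Yorkshire and 7.88, 7.80 and 7.99 in Shaziling, with 1 Shaziling piglet inside the Yorkshire range. PSMD13, a subunit of the lid, read 11.28, 11.30 and 11.19 in Yorkshire and 11.22, 10.90 and 11.12 in Shaziling. Its difference was −0.18 ± 0.17 (adjusted p = 0.770), and 1 Shaziling piglet lay inside the Yorkshire range. PSMD4, a ubiquitin receptor, differed by 0.05 ± 0.17. The lid subunits PSMD3, PSMD6, PSMD8 and PSMD12 differed by −0.16, −0.06, −0.05 and 0.15. PSMD11, also of the lid, differed by 0.09 and −0.01 at its 2 probe sets.

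The 25 probe sets of the core and cap, without the immunoproteasome, had 13 positive and 12 negative differences and a median of 0.01. For all 25 the 95% interval stayed within 1 on the log2 scale either way, that is within a doubling, and the widest reached a 1.63-fold difference. For all tested probe sets this share was 57.5%, and for the 3393 with a mean signal of at least 10, like most of the core and cap, it was 81.8%. The median SD between siblings was 0.14 for the 25 probe sets and 0.25 for those 3393. A difference smaller than these intervals could not be seen with 3 piglets a breed.

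**Figure D2:**
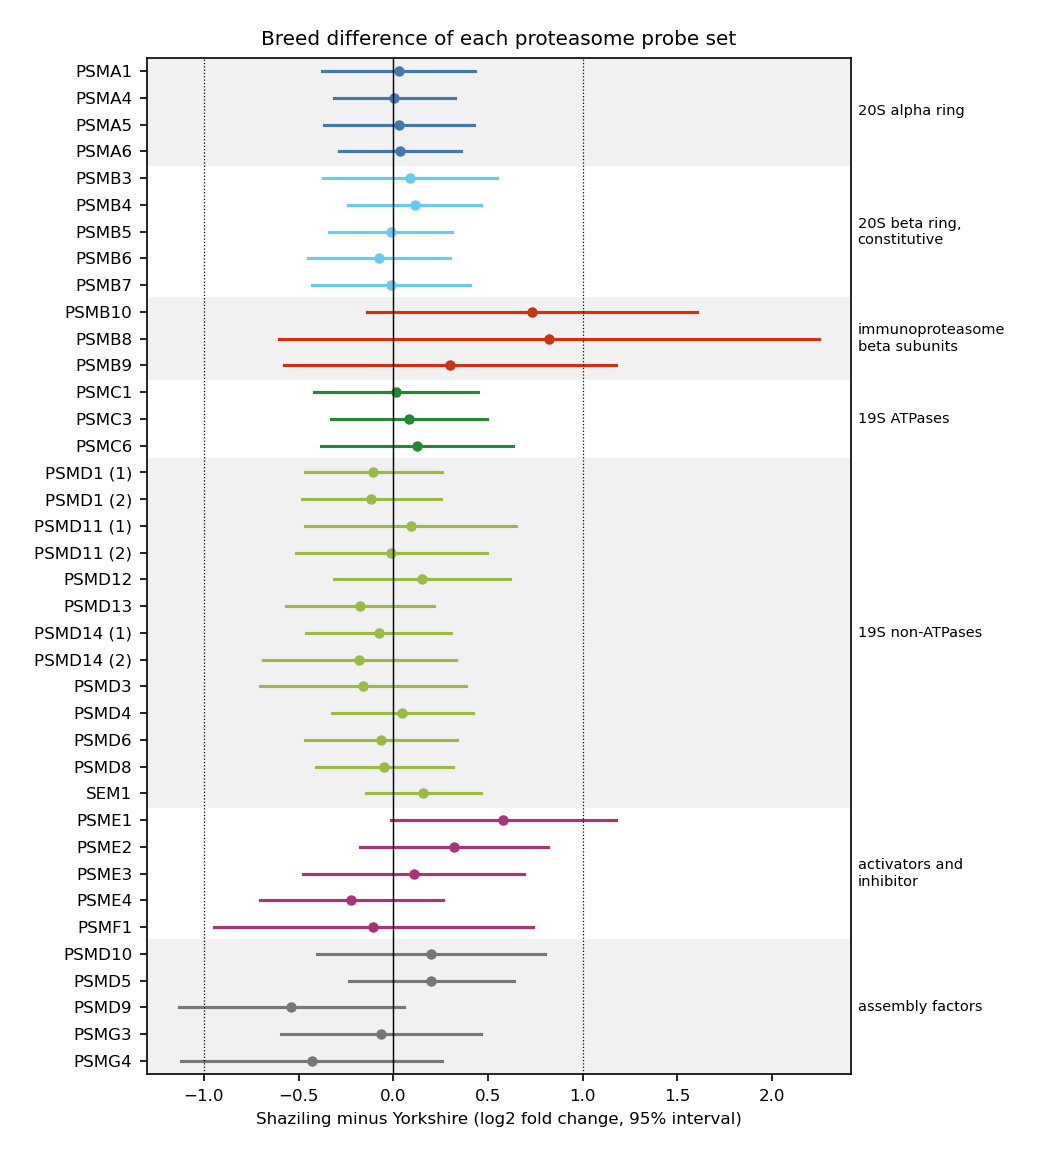
Difference between breeds of each tested probe set (Shaziling minus Yorkshire, log2) with its 95% interval from limma. Colours and shading mark the role, and dotted lines stand at 1 and −1. All 38 intervals hold 0, those of the core and cap lie between the dotted lines, and the immunoproteasome subunits have the widest intervals.

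The interferon-inducible genes had higher means in Shaziling, and none passed the test. PSMB8 takes the place of PSMB5 and lies on chromosome 7 (positions 29329054 to 29332177 in the file, whose genome build is not stated in readable form). It read 7.99, 7.05 and 6.86 in Yorkshire and 8.53, 9.33 and 6.51 in Shaziling, and was Present on only 3 arrays, Yorkshire replicate 1 and Shaziling replicates 4 and 5. Shaziling thus held both the highest and the lowest value, and the difference was 0.82 ± 0.63 (adjusted p = 0.701, 95% interval −0.60 to 2.25). PSMB9 takes the place of PSMB6 and lies near PSMB8 on chromosome 7 (29342941 to 29348101), with only TAP1 among the coding genes between them in the RefSeq order. It read 7.23, 6.99 and 8.25 in Yorkshire and 8.07, 8.11 and 7.20 in Shaziling. The highest value was a Yorkshire piglet, and the difference was 0.30 ± 0.39 (adjusted p = 0.827).

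PSMB10, which takes the place of PSMB7, read 8.10, 7.12 and 8.75 in Yorkshire and 9.05, 8.58 and 8.53 in Shaziling. Yorkshire replicate 3 lay above 2 of the Shaziling piglets, and the difference was 0.73 ± 0.39 (adjusted p = 0.559, 95% interval −0.14 to 1.60). Its probe set is placed on chromosome 4 in the file at 61.2% identity, whereas the RefSeq table has PSMB10 on chromosome 6. Its identity is thus less sure than that of PSMB8 and PSMB9. The median of the 3 differences, 0.73, is that of PSMB10 itself. Leaving out 1 array at a time moved it from 0.22, without Shaziling replicate 5, to 0.83, without Shaziling replicate 6, and it was 0.30 without Yorkshire replicate 2.

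These 3 genes also varied more between siblings than the core and cap. Their median SD within breeds was 0.61, against 0.35 for the 5323 tested probe sets of mean signal 7 to 9 and 0.14 for the core and cap. Each ranged over 1.27 to 2.82 across the 6 arrays, while the constitutive subunits that they replace ranged over 0.19 to 0.47. For PSMB8 the interval reached a 4.74-fold difference, so its data leave much larger differences possible than those of the core.

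**Figure D3:**
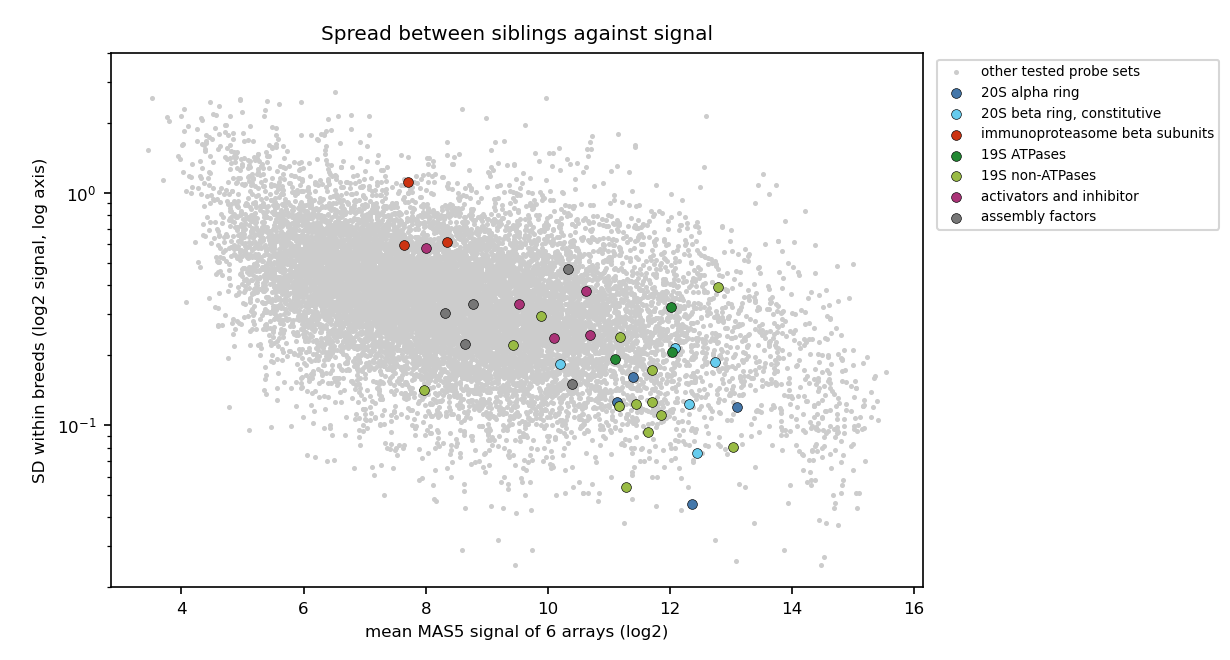
SD within breeds (vertical, log axis, log2 signal units) against mean signal over 6 arrays (log2) for every tested probe set. Grey points are the other tested probe sets and coloured points the proteasome members by role. Immunoproteasome subunits lie high, with PSMB8 at 1.11, and core and cap mostly lie low.

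PSME1 and PSME2 encode the alpha and beta chains of PA28, the interferon-inducible ring that can cap the core in place of 19S. Both lie on chromosome 7 (PSME1 at 81502659 to 81505382, PSME2 at 81495422 to 81498696 in the file) with 1 coding gene between them in the RefSeq order. PSME1 read 10.29, 9.84 and 10.89 in Yorkshire and 10.98, 10.91 and 10.88 in Shaziling. Shaziling siblings were nearly equal while Yorkshire ones varied, and the top Yorkshire value just exceeded the lowest Shaziling value. The difference of 0.58 ± 0.26 had the smallest p of the members (0.054, limma adjusted p = 0.493, 95% interval −0.01 to 1.18). PSME2 read 10.01, 9.65 and 10.16 in Yorkshire and 10.18, 10.51 and 10.11 in Shaziling. The breeds overlapped through Yorkshire replicate 3, and the difference was 0.32 ± 0.22 (adjusted p = 0.660).

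The 5 interferon-inducible genes together had 5 positive differences and a median of 0.58, while the other 33 probe sets had 16 positive and 17 negative and a median of −0.01. No test was made of this contrast, and with array weights the PSMB8 difference was −0.0015, so that not all 5 were positive. That fit weighted Yorkshire replicates 1 to 3 by 3.62, 0.48 and 0.71 and Shaziling replicates 4 to 6 by 0.60, 0.88 and 1.54. The array of largest weight in Yorkshire had the highest PSMB8 value of its breed, and that in Shaziling the lowest. The means depended on single piglets. Without Yorkshire replicate 2, the lowest Yorkshire piglet for PSMB9, PSMB10, PSME1 and PSME2, the differences were 0.05, 0.30, 0.33 and 0.18. Without Yorkshire replicate 3 they were 0.68, 1.11, 0.86 and 0.43. For PSMB8 the difference was 0.22 without Shaziling replicate 5 and 1.63 without Shaziling replicate 6, and no adjusted p of these genes was under 0.05 in any of these fits.

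**Figure D4:**
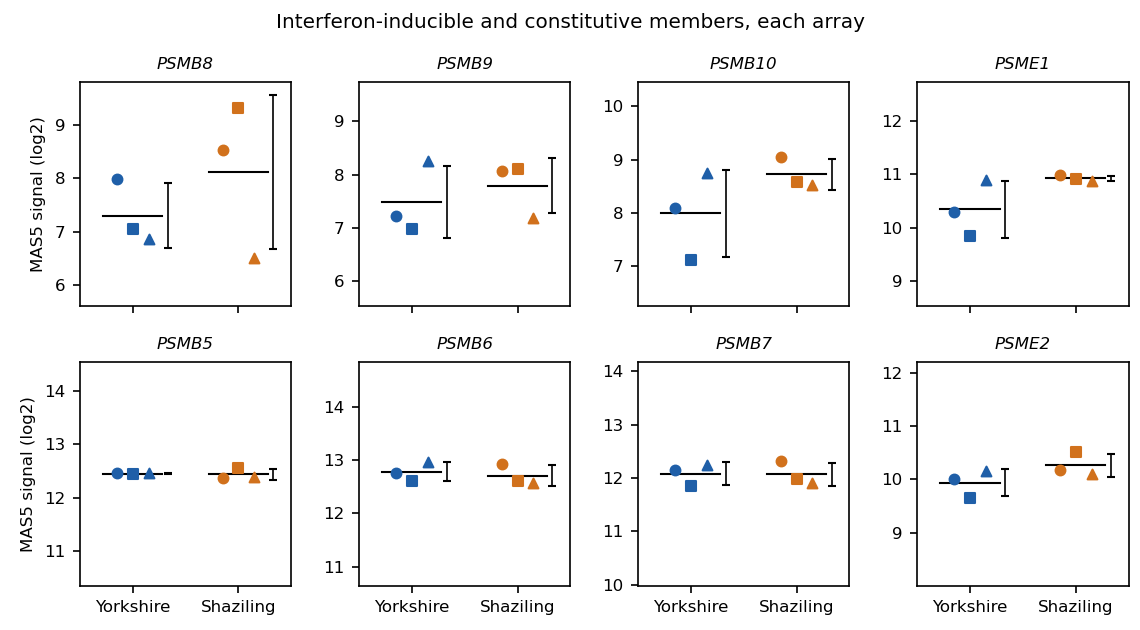
Log2 MAS5 signal of each array for the inducible subunits PSMB8, PSMB9 and PSMB10 above their constitutive counterparts PSMB5, PSMB6 and PSMB7, with PSME1 and PSME2 at the right. Points are piglets (circle, square and triangle for replicates 1, 2, 3 and 4, 5, 6), horizontal lines are means, bars are SDs, and every panel spans the same range. The breeds overlap in all 8 panels.

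The same piglets were high or low for several inducible genes. Relative to the mean of the 6 arrays, the 3 immunoproteasome subunits averaged −0.13, −0.85 and 0.05 in Yorkshire replicates 1 to 3 and 0.65, 0.77 and −0.49 in Shaziling replicates 4 to 6. PSME1 and PSME2 averaged −0.22, −0.62 and 0.16 in Yorkshire and 0.21, 0.34 and 0.13 in Shaziling. Yorkshire replicate 2 was thus the lowest array in both. On Shaziling replicate 6 PSMB8, not Present there, and PSMB9 were low, while PSMB10, PSME1 and PSME2 were above their means. The constitutive core stayed between −0.10 and 0.10, the cap between −0.07 and 0.11, and all tested probe sets between −0.06 and 0.03. These were means over 9, 16 and 14413 probe sets, and means over more probe sets tend to vary less. The 3 ATPases of the cap ran from −0.247 to 0.144. The 5 constitutive genes of the beta ring ran from −0.165, also on Yorkshire replicate 2, to 0.118.

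**Figure D5:**
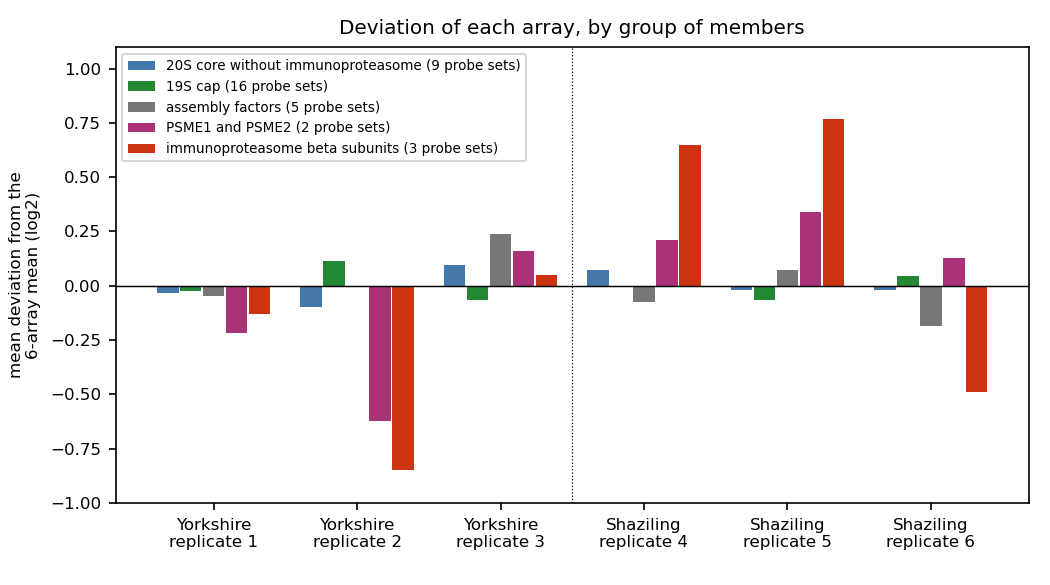
Mean deviation of each array from the 6-array mean (log2), for 5 groups of members. Bars are means over the probe sets of a group, with no error bar since genes are not replicates. Yorkshire replicate 2 is lowest and Shaziling replicates 4 and 5 are highest for the immunoproteasome subunits, and core and cap stay near 0 on every array.

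In whole muscle, fewer cells of a type and less RNA per cell cannot be told apart. The 4 tested endothelial markers deviated by −0.15, −0.82 and 0.28 in Yorkshire and 0.61, 0.20 and −0.12 in Shaziling. Yorkshire replicate 2, the lowest array in the means of the inducible genes, was also lowest in the marker means of endothelium, leukocytes, adipocytes and muscle fibres. Single markers did not all follow. PECAM1, VWF, TEK, CD163, LYZ and FABP4 were lowest there. PTPRC and LEP were lowest on Yorkshire replicate 3, ADIPOQ on Shaziling replicate 4, CSF1R on Shaziling replicate 5 and CDH5 on Shaziling replicate 6. The endothelial markers had summed linear signals of 3677 to 7519 in Yorkshire and 3865 to 6825 in Shaziling, and 0 of 4 passed the test. At an unadjusted p under 0.05 were VWF, at 2.25, and CDH5, at −0.68. Beside such counts in this paragraph, 0.215% of all tested probe sets passed the test and 10.4% had an unadjusted p under 0.05. The 4 tested leukocyte markers, of 9 listed and 8 with a named probe set, deviated by −0.12, −0.44 and −0.36 in Yorkshire and 0.05, 0.15 and 0.72 in Shaziling. Of these, LYZ passed the test at a difference of 2.05 (adjusted p = 0.0425), a call lost without Yorkshire replicate 1 or Shaziling replicate 6, when no probe set passed. The markers PTPRC, CSF1R and CD163 did not pass, and CD14, ITGAM, CD3E and CD79B were Present on too few arrays to be tested. Summed leukocyte signals were 638 to 1303 in Yorkshire and 985 to 1580 in Shaziling. Fibroblast markers summed to 45512 to 63948 and 47390 to 60175, and adipocyte markers to 2451 to 4341 and 4314 to 4900, with 0 of 4 and 0 of 3 past the test, adjusted or not. The muscle fibre list deviated by 0.13, −0.27 and 0.04 in Yorkshire and 0.01, 0.12 and −0.02 in Shaziling. Of its 10 tested genes 0 passed the test, and differences were positive for 9 and negative for 1. The negative one was MB, at −0.99, with an unadjusted limma p of 0.00635 (adjusted p = 0.288), the only fibre gene under 0.05. Fibroblast markers deviated by 0.24, −0.21 and 0.21 in Yorkshire and 0.04, −0.42 and 0.13 in Shaziling. Adipocyte markers deviated by 0.17, −0.35 and 0.08 in Yorkshire and −0.24, −0.15 and 0.49 in Shaziling. The part of other cell types in the inducible genes' values was not tested.

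The remaining regulators of the core varied without a shared direction. PSME3, the nuclear PA28 gamma chain, read 9.19, 9.96 and 9.28 in Yorkshire and 9.75, 9.65 and 9.35 in Shaziling, overlapping with a difference of 0.11 ± 0.26. PSME4, the PA200 activator, read 10.80, 11.06 and 10.54 in Yorkshire and 10.32, 10.76 and 10.66 in Shaziling, overlapping with a difference of −0.22 ± 0.21. PSMF1, the PI31 protein first described as an inhibitor of the core, read 7.84, 7.52 and 8.81 in Yorkshire and 8.49, 7.65 and 7.72 in Shaziling. It overlapped, with a difference of −0.10 ± 0.38.

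A second, dim probe set of PSMF1 was Present on 0 Yorkshire and 2 Shaziling arrays and was not tested. It read 5.44, 5.44 and 4.74 in Yorkshire and 6.13, 5.99 and 6.58 in Shaziling, a 2.04-fold higher mean in Shaziling. The Yorkshire signals were above the lowest Present signal of their arrays, though none was called Present, so the size of the difference is uncertain. With no filter on dim probe sets the difference was 1.03 ± 0.44 (SE, limma adjusted p = 0.561). Its direction was opposite to that of the brighter PSMF1 probe set. A second probe set of PSMD3, which lists 2 genes, was Present on no array.

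The assembly factors held the lowest difference among the members. PSMD9, a chaperone of the cap's base that lies on chromosome 14 (30847487 to 30847920 in the file), read 8.50, 8.51 and 8.74 in Yorkshire and 8.25, 8.31 and 7.58 in Shaziling. Every Shaziling piglet lay below every Yorkshire piglet, yet the difference of −0.54 ± 0.26 did not pass the test (adjusted p = 0.531, 95% interval −1.13 to 0.06). Leaving out 1 array at a time gave −0.67 to −0.30, with the smallest size when Shaziling replicate 6 was left out. PSMG4, a chaperone of the core, read 10.19, 10.61 and 10.83 in Yorkshire and 9.69, 10.77 and 9.88 in Shaziling. Shaziling replicate 5 lay among the Yorkshire piglets, and the difference was −0.43 ± 0.31 (adjusted p = 0.673). Leaving out 1 array gave −0.76, without Shaziling replicate 5, to −0.22, without Shaziling replicate 4.

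The other chaperones of the base were slightly higher on average in Shaziling. PSMD5 read 10.08, 10.29 and 10.50 in Yorkshire and 10.50, 10.45 and 10.52 in Shaziling, overlapping with a difference of 0.20 ± 0.19. PSMD10, also called gankyrin, read 8.49, 8.40 and 9.13 in Yorkshire and 8.84, 8.64 and 9.13 in Shaziling, also overlapping, with a difference of 0.20 ± 0.27. PSMG3, which acts with PSMG4 on the core, differed by −0.06 ± 0.23. The median of the 5 assembly factors was −0.06, and none passed the test.

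No tested gene of 3 lists that act with the proteasome passed the test, nor had one an unadjusted p under 0.05. Of all tested probe sets, 0.215% and 10.4% did. Many listed symbols had no named probe set and were not tested. Of 4 listed ubiquitin genes, 3 were tested and 0 passed, and UBB, a polyubiquitin gene, differed by 0.16 ± 0.11. Of 23 listed enzymes that activate or conjugate ubiquitin, 7 were tested and 0 passed, with 5 positive, 2 negative and a median of 0.01. UBE2V1, a partner of UBE2N in building chains, differed by −0.36 ± 0.21 with breeds that did not overlap (adjusted p = 0.590). Of 30 listed symbols of factors that bind or feed the proteasome, 14 were tested, SEM1, PSMG3 and PSMG4 included. Of these 14, 0 passed, with 7 differences in each direction. ZFAND5, a zinc finger protein that binds the proteasome, differed by 0.25 ± 0.17.

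NFE2L1 and NFE2L2 are transcription factors tied to proteasome gene expression and the oxidative stress response. Of 8 listed genes, these factors and stress genes co-regulated with the proteasome, 6 were tested, and NFE2L1 was not among them. Of the 6, 0 passed and 2 had an unadjusted p under 0.05, beside 10.4% of all tested probe sets. The median difference was −0.30. NQO1, a quinone reductase induced by NFE2L2, read 12.02, 11.34 and 12.25 in Yorkshire and 11.59, 10.30 and 10.18 in Shaziling, a difference of −1.18 ± 0.38 (adjusted p = 0.323). KEAP1, the adaptor that targets NFE2L2 for degradation, differed by −0.55 ± 0.20 (adjusted p = 0.365) and its breeds did not overlap. NFE2L2 itself differed by 0.08 ± 0.19.

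Of 7 listed symbols of muscle atrophy genes, 3 were tested. Of these, 0 passed, adjusted or not, beside 0.215% and 10.4% of all tested probe sets. FBXO32, the muscle ubiquitin ligase atrogin-1, read 9.74, 12.40 and 8.81 in Yorkshire and 9.70, 11.89 and 11.30 in Shaziling. Siblings thus differed far more than the breeds, whose difference was 0.65 ± 0.84. FOXO1, a transcription factor that induces FBXO32, differed by −0.62 ± 0.32 (adjusted p = 0.550).

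Of 17 listed interferon-gamma and antigen presentation genes, 14 were tested. Of these, 0 passed and 2 had an unadjusted p under 0.05, beside 10.4% of all tested probe sets. Differences were positive for 10 and negative for 4, with a median of 0.25, beside 46.2% positive overall. CD74, the invariant chain of class II molecules, read 6.19, 9.74 and 7.91 in Yorkshire and 9.10, 12.19 and 10.58 in Shaziling, a difference of 2.68 ± 0.91 (adjusted p = 0.340). GBP2, an interferon-induced GTPase, differed by 0.71 ± 0.27 (adjusted p = 0.393), with every Shaziling piglet above every Yorkshire piglet. TAP1, the peptide transporter gene between PSMB8 and PSMB9, was named for its position. It read 8.78, 8.80 and 9.21 in Yorkshire and 9.16, 9.47 and 8.98 in Shaziling, overlapping with a difference of 0.27 ± 0.24. By array the list deviated by −0.35, −0.37 and 0.18 in Yorkshire and 0.11, 0.48 and −0.05 in Shaziling, its lowest array again being Yorkshire replicate 2.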

How the data were processed

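The submitters' processing notes name MAS5, without a version. The authors deposited log2 signals, scaled array by array, together with detection calls (per the file headers). Their 2 tables were identical in every signal (0 values differed). Members and gene lists were chosen with earlier results of these data known. Symbols were updated through Entrez gene IDs to a RefSeq table (assembly Sscrofa11.1), used for names, gene order, chromosome and gene class. Alignment identities and positions are those of the deposited annotation.

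The 14413 of 23999 non-control probe sets that were Present on at least 3 of 6 arrays were tested with limma 3.58.1 in R 4.3.3 (lmFit, eBayes with trend=TRUE, no offset, no covariate), taking Shaziling minus Yorkshire. P-values were adjusted by Benjamini-Hochberg over these 14413, with a threshold of 0.05. The procedure was tested on simulated data. Values after ± are the SE of this fit unless marked SD. Each probe set was kept apart. For a listed gene with several probe sets, the one of highest mean signal was used.

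Values per array were given for the 6 members of smallest p in each direction, the immunoproteasome subunits with their counterparts, PSME1 to PSME4 and the brightest member. Up to 4 genes of smallest p were eligible per list; the second PSMD1 probe set, PSMA4, PSMC6, PSMF1, PSMD10, NFE2L2 and TAP1 were added after their values were seen. Sequences were not used here, and some listed genes are not reported here.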

Additional observations from a re-analysis of the deposited data

How the results depend on the processing

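In all 15 alternative fits (6 leaving out 1 array, 9 with another filter, normalization, offset, prior, weighting or covariate), 0 proteasome probe sets passed the threshold; the lowest adjusted p was 0.149, for PSME1 with array weights. With array weights the unadjusted limma p was 0.0171 for PSME1 and 0.0253 for PSMD9. With the Present share as covariate it was 0.0083, 0.0166 and 0.0392 for PSMB10, PSME1 and PSMG4. Without Yorkshire replicate 3 it was 0.0049 for PSME1 and 0.0108 for PSMB10. It was 0.0198 for PSMG4 without Shaziling replicate 5 and 0.0041 for PSMB8 without Shaziling replicate 6. With no filter it was 0.0464 for PSME1 and 0.0436 for the dim PSMF1 probe set. For that probe set it was 0.0289 with the filter set at Present on at least 1 array. Among the 18 members followed, 17 of 268 differences changed sign, none of them called in either fit. The PSMB8 difference was −0.0015 with array weights, against 0.82, and PSMB10 was 1.15 with each array's Present share as a covariate. The array weights were uneven, from 0.48 for Yorkshire replicate 2 to 3.62 for Yorkshire replicate 1, so that fit leaned on few piglets. Array weights gave a median of 0.11 for the alpha ring and −0.23 for the assembly factors. The covariate gave 0.16 for the constitutive beta ring and 0.33 for the activators and inhibitor, whose median ran from −0.035 to 0.27 when 1 array was left out. The count over all tested probe sets, 31, depended on the processing: it was 13 with no filter, 19 with Present calls on all 6 arrays, 8 without the trend, 364 with array weights, and 0 to 27 with 1 array left out (0 without Yorkshire replicate 1 or Shaziling replicate 6, 5 without Shaziling replicate 5, 11 without Yorkshire replicate 2). The median over all probe sets was −0.04 as deposited and 0.00 after quantile normalization or cyclic loess. The causes were not tested. No paired analysis was possible, since the breeds were separate sibling groups on separate farms and no label links their piglets.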

Other observations

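Further probe sets carried a proteasome gene by Entrez ID or by the array's target description but had no such symbol or title. A probe set described as moderately similar to PSMD9 had the gene name RPL38 by Entrez ID and was left out. The remaining 19 probe sets were examined. They stood for PSMC2, PSMC5, PSMA3 and PAAF1, and for sequences described as similar to PSMA2, PSMA7, PSMB1, PSMB2, PSMC2, PSMC4, PSMD2, PSMD7 and PSMD11. Of the 17 tested with limma, 0 passed the threshold and 0 had an unadjusted p under 0.05, where 0.215% and 10.4% of all tested probe sets did. Their differences were positive for 7 and negative for 10, from −0.37 to 0.48, with a median of −0.05. The breeds overlapped for all 17, where 16.3% of all tested probe sets did not overlap.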
